A study of Bos indicus with 12 samples.

Results

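The cytosolic ribosomal protein genes encode the proteins of the 2 subunits of the ribosome that works in the cytoplasm. They were chosen by symbol: RPL, RPS and RPLP symbols with a number, plus RPSA and FAU, leaving out the S6 kinases and symbols that start with LOC. The symbol table held 81 such genes, and the count table held 77 of them among its 26229 gene identifiers. RPL7, RPL23A, RPLP2 and RPL39 are not analysed here. Of the 77 genes, 46 encode large-subunit and 31 small-subunit proteins, and 76 (45 large, 31 small) passed the filter on low counts, as did 15420 identifiers in all.

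The samples were blood RNA libraries from 12 female Bos indicus cows of 2 Indian zebu breeds, Gir and Shweta Kapila, in the second or the third lactation. Each breed gave 3 cows of a high and 3 of a low milk yield class, set within the breed from lactation records, so a class name need not mean the same yield in both breeds. The labels name no agent or allele beyond the yield class, and each library came from its own cow. The study asked how blood gene expression relates to milk production in these breeds. The sources used here give no ages or milk yields.

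A ribosome is built from ribosomal RNA and about equal numbers of copies of each ribosomal protein, so cells make these proteins in step. Their mRNAs carry a short pyrimidine tract at the 5′ end (TOP mRNAs), through which the kinase complex mTORC1 sets how much of them is translated. In blood they make up a large share of the mRNA of lymphocytes, above all naive T and B cells, and a small share of that of neutrophils. In whole-tissue RNA, fewer cells of a type and less RNA per cell cannot be told apart.

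The libraries differed in depth and in other measures. A library held between 14.2 and 27.2 mega-counts (M). The 37 gene identifiers that are shorter than the rest and carry no symbol held between 4.54% and 13.1% of the counts, with means of 7.37 ± 0.772% and 7.06 ± 1.42% in high- and low-yielding Gir and 6.09 ± 2.52% and 10.1 ± 3.98% in high- and low-yielding Shweta Kapila cows (SD, n = 3 each). The labels name peripheral blood mononuclear cells and also the PAXgene Blood RNA kit, which lyses whole blood. Markers of neutrophils, which a mononuclear preparation should lack, summed to between 2311 and 6131 CPM (normalised counts, divided by the library's total in M after TMM scaling of the libraries to each other) over 10 of 15 listed genes. T cell markers summed to between 3203 and 6423 CPM over 15 of 15 genes, and the B cell, NK and monocyte lists were detected in every library. Platelet markers summed to between 281 and 572 CPM and erythroid markers to between 175 and 801 CPM.

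The 77 genes held 4.29%, 4.12% and 3.43% of all counts in the 3 high-yielding Gir cows, numbered 1 to 3 as in the labels. In low-yielding Gir cows the shares were 4.75%, 4.46% and 3.26%. High-yielding Shweta Kapila cows had 6.11%, 5.82% and 3.01%, and low-yielding Shweta Kapila cows 2.38%, 2.65% and 5.08%. The Gir groups overlapped and lay in a narrow range, with means of 3.94 ± 0.454% and 4.16 ± 0.791% (SD, n = 3 each). The Shweta Kapila groups overlapped too, because high 3 had a share near those of low 1 and low 2 and low 3 a share near those of high 1 and high 2. Their means were 4.98 ± 1.71% and 3.37 ± 1.49% (SD, n = 3 each). Whether the yield classes of high 3 and low 3 are labelled rightly could not be checked here, and every Shweta Kapila yield value below rests on these labels. Summed NK and cytotoxic markers stood at 805 CPM in high 3 and 642 CPM in low 3. Sums of NK, T cell and erythroid markers were higher in all 3 high-yielding than in all 3 low-yielding Shweta Kapila cows. The erythroid sums were close, at 255, 276 and 277 CPM against 245, 223 and 175 CPM. By gene, 2 of the 5 tested erythroid markers were higher with high yield and 3 lower (median log2 fold change -0.02). Sums of B cell, monocyte, neutrophil and platelet markers overlapped between the classes. What these sums mean for the labels was not tested.

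**Figure D1:**
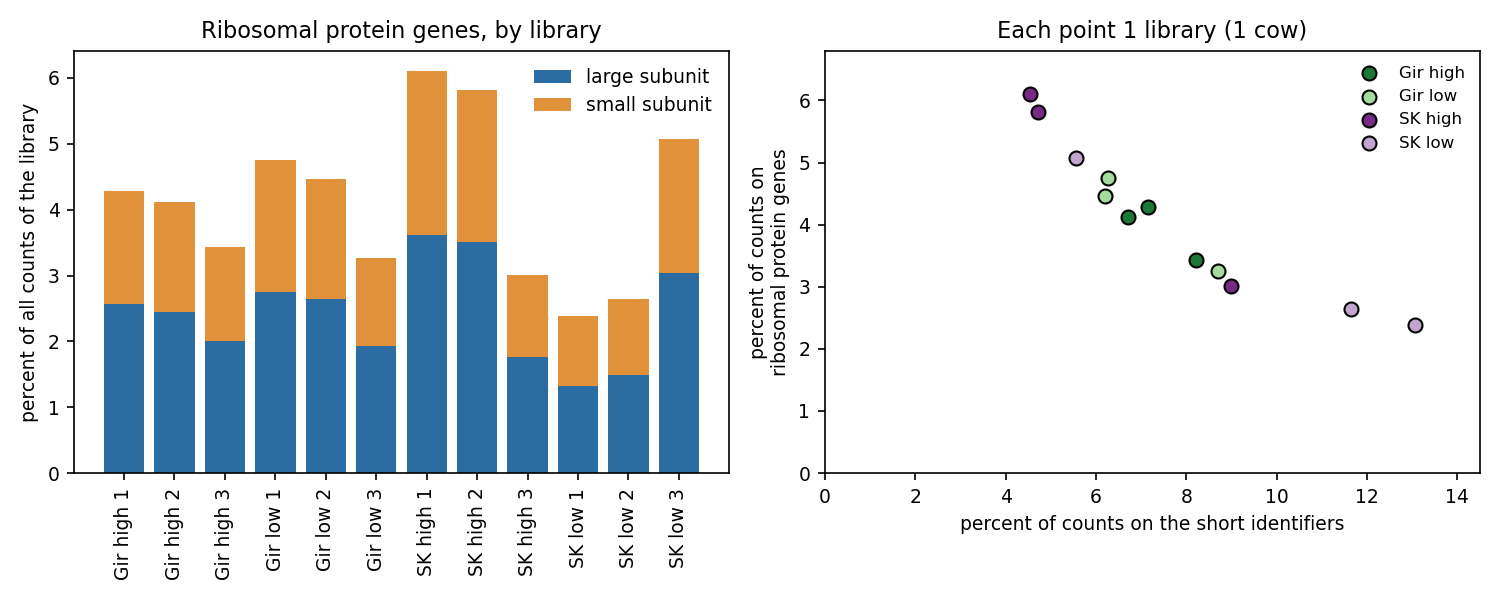
Left: stacked bars give the percent of all counts of each library that fall on large-subunit and small-subunit genes (SK, Shweta Kapila). Right: the percent on all 77 genes against the percent on the 37 short identifiers without a symbol, each point 1 library. The share runs from 2.38% in SK low 1 to 6.11% in SK high 1, and libraries with more counts on the short identifiers have less on the ribosomal protein genes.

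The share of the ribosomal protein genes and that of the short identifiers were in opposite order in 64 of the 66 pairs of libraries, and this count was also 64 when the short identifiers were left out of the denominator. On the scaled measure, the mean log2 CPM of the genes, the order was opposite in 61 of 66 pairs. The share and the total count were in opposite order in 55 of 66 pairs. Summed NK markers were in the same order as the ribosomal share in 48 pairs, T cell markers in 41, monocyte markers in 38, B cell and neutrophil markers in 34 each, erythroid markers in 31 and platelet markers in 30. All points of these counts share the same 12 libraries, so the counts are a description. What part the short identifiers, the depth or the cell makeup have in the share was not tested.

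The balance between large- and small-subunit genes varied far less from cow to cow than their share did. Counts on large-subunit genes were 1.46 ± 0.0473 times those on small-subunit genes in high-yielding Gir, 1.43 ± 0.0489 times in low-yielding Gir, 1.46 ± 0.0573 times in high-yielding and 1.34 ± 0.121 times in low-yielding Shweta Kapila cows (SD, n = 3 each). The single libraries ran from 1.25 in Shweta Kapila low 1 to 1.52 in Shweta Kapila high 2. Shweta Kapila low 1 and low 2 (1.29) had the lowest ratios of the 12 and also the lowest shares of ribosomal protein counts. As the mean log2 CPM of large-subunit minus that of small-subunit genes, the difference was -0.32 ± 0.03 and -0.25 ± 0.07 in high- and low-yielding Gir and -0.19 ± 0.03 and -0.22 ± 0.07 in high- and low-yielding Shweta Kapila cows (SD, n = 3 each). This measure weighs each gene alike, so 1 small-subunit gene, RPS29, can move it. RPS29 ran from 0.489 to 25.6 CPM. It was low in Gir low 1, Shweta Kapila high 3 and all low-yielding Shweta Kapila cows, which raises the difference in those libraries. The difference without RPS29 is not given, so these group values are not read as a shift in subunit balance.

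**Figure D2:**
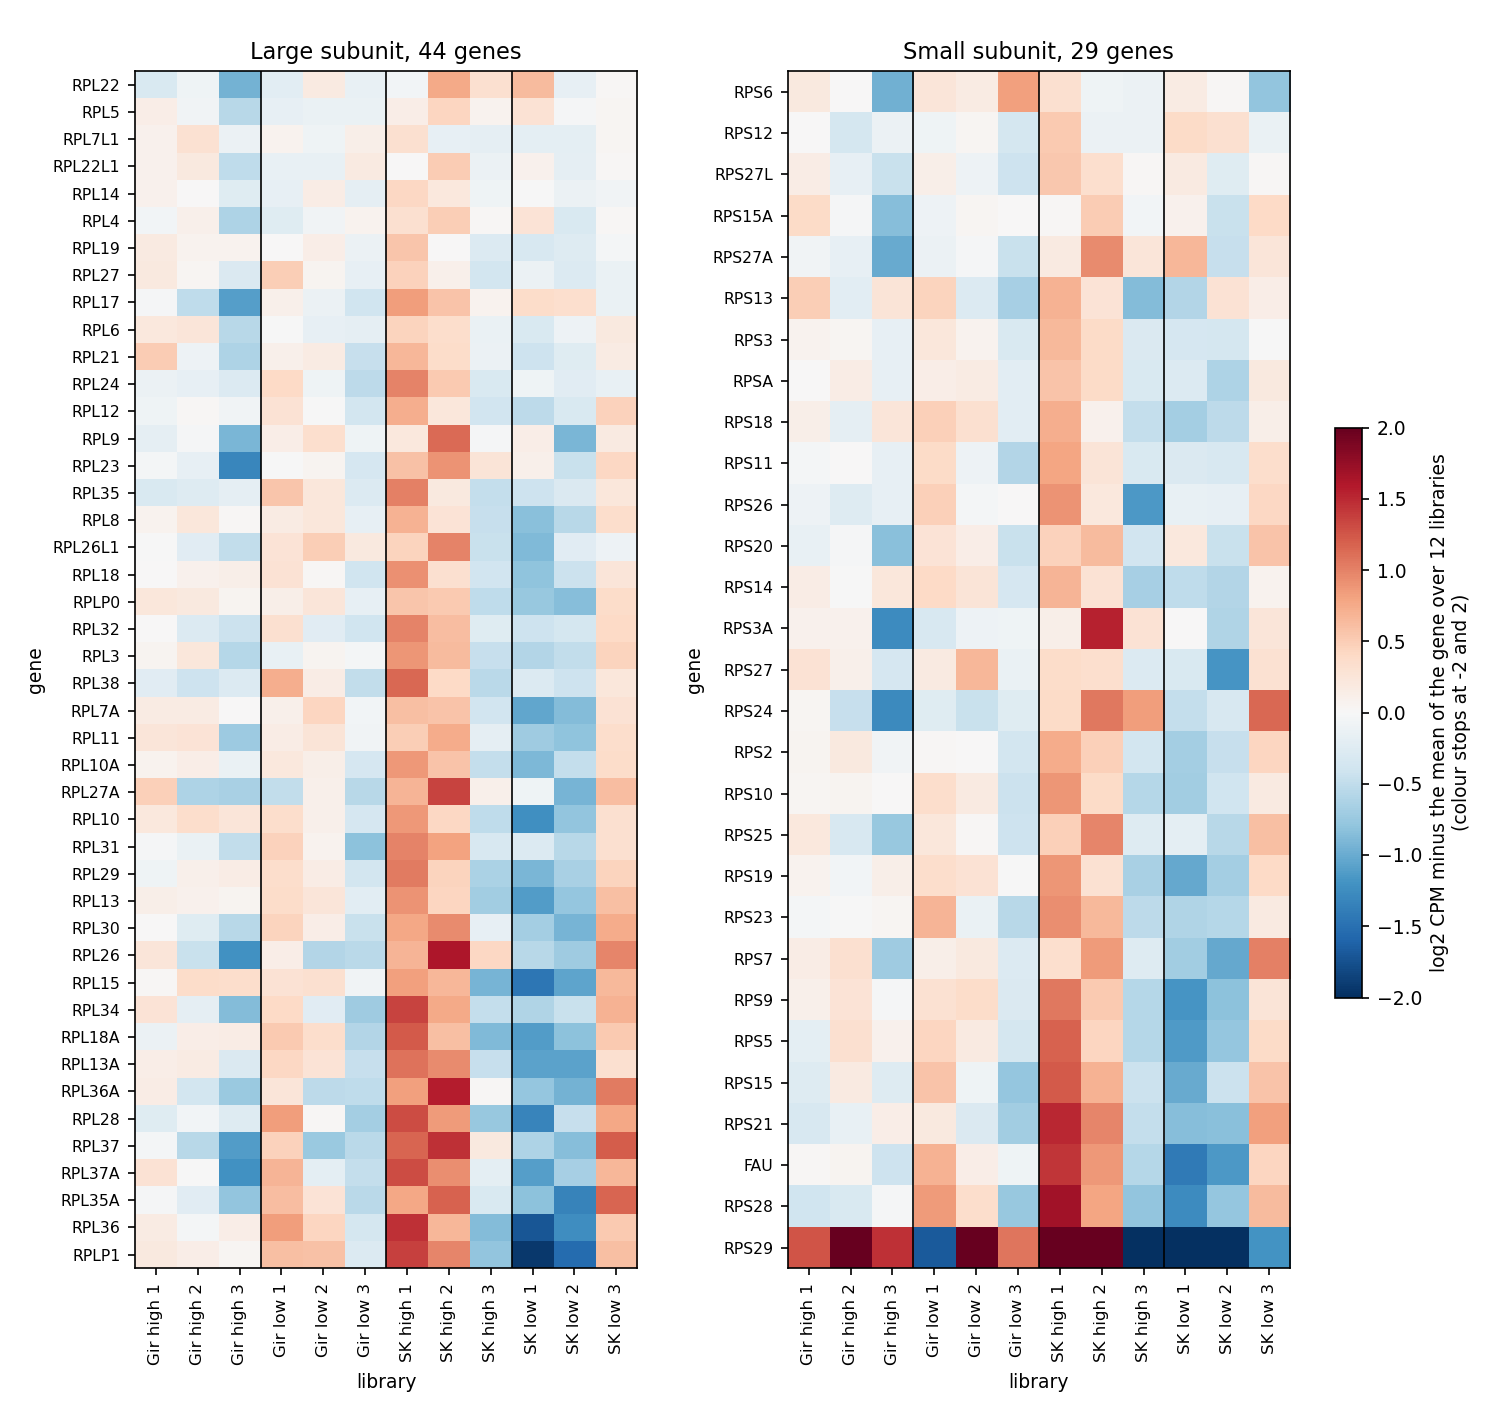
Colour gives the log2 CPM of each gene in each library minus the mean of that gene over the 12 libraries, for 44 large-subunit (left) and 29 small-subunit genes (right), ordered by their slope on the mean of the other ribosomal protein genes; SK is Shweta Kapila. RPL3L, with 0 counts in 1 library, is not drawn, nor are 2 small-subunit genes that are not reported here. Most rows are red in SK high 1 and high 2 and blue in SK low 1 and low 2, and SK high 3 and SK low 3 show the other colour. The rows at the top have the lowest slopes, so their levels change least as the mean of the other genes changes. A low slope need not mean a low correlation.

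The genes differed in how far they varied. The highest library was a median of 3.41 times the lowest, with 28 genes over 4-fold and 8 under 2-fold. The SD of log2 CPM over the 12 libraries had a median of 0.51 for the 76 genes and of 0.49 for all tested genes. Correlation with the mean of the other ribosomal protein genes, over 12 libraries that share depth and scaling, had a median r of 0.85, and 47 genes (61.8%) exceeded 0.8, against 8.02% of all tested genes. Shweta Kapila high 1 was the highest library for 50 of the 76 genes and Shweta Kapila high 2 for 20. Shweta Kapila low 1 was the lowest for 29, Gir high 3 for 25 and Shweta Kapila low 2 for 11.

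RPS29, RPLP1 and RPL3L had the largest SD of log2 CPM. RPS29, a zinc-binding protein of the small-subunit head (identifier 109565004), stood at 11.9, 25.6 and 13.7 CPM in high-yielding Gir, 1.56, 21.3 and 10.5 in low-yielding Gir, 23.9, 21.0 and 0.56 in high-yielding and 0.489, 0.552 and 2.17 in low-yielding Shweta Kapila cows. It was thus low, at or below 2.17 CPM, in 4 of the 6 Shweta Kapila cows and in Gir low 1, and above 10 CPM in the rest. Its counts ran from 11 to 471 per library, and its highest library was 52.3 times the lowest. RPL3L, the form of RPL3 found in striated muscle, stood between 0 and 0.886 CPM, at 0 to 14 counts.

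At the other end, RPL7L1 and RPL14 had the smallest SD. RPL7L1, a relative of RPL7 that acts in large-subunit assembly, stood between 82.5 and 118 CPM, a range of 1.43-fold. RPL14, a large-subunit protein, stood between 566 and 891 CPM (1.57-fold). RPS6 and RPS12 followed the other genes least of all. RPS6, the substrate of the S6 kinases below mTORC1, had a correlation with the mean of the others of 0.01, and RPS12, a small-subunit protein, of 0.04.

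In Shweta Kapila cows, 75 of 76 genes had a higher fitted level with high than with low yield, but none passed the test. The median log2 fold change, high over low yield, was 0.58, against -0.02 for all tested genes, of which 7447 of 15420 were above 0. All 45 large-subunit genes were above 0 (median 0.65), and 30 of 31 small-subunit genes (median 0.50). The exception was RPS12, at -0.08 ± 0.25 (SE). No member passed edgeR's quasi-likelihood test at an adjusted p under 0.05 (lowest 0.631), nor did any other gene (0% of those tested). At an unadjusted p under 0.05, 5 genes (6.58%) were higher, against 4.05% of all genes, and 0 were lower, against 2.93%.

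**Figure D3:**
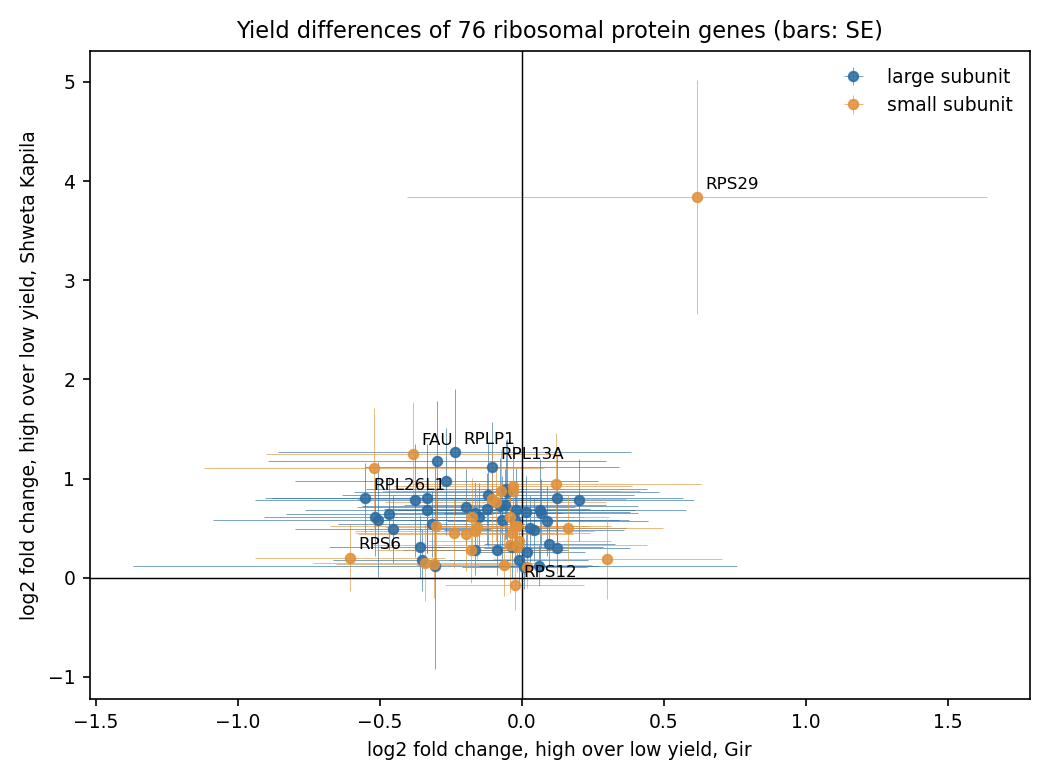
Each point is 1 of the 76 tested genes, with the log2 fold change of high over low yield in Gir (horizontal) and in Shweta Kapila (vertical); bars are SE and colour gives the subunit. All points but RPS12 lie above 0 on the vertical axis, 18 lie right of 0 on the horizontal axis, and RPS29 stands apart at 3.84 in Shweta Kapila.

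RPS29, RPL13A and FAU had the lowest p among them. RPS29 differed by 3.84 ± 1.18 on the log2 scale (SE), with adjusted p = 0.631 from edgeR, and the level in high 3 lay between those of the low-yielding cows. RPL13A (identifier 109572668), a large-subunit protein that can also leave the ribosome to silence inflammatory mRNAs, stood at 1860, 1697 and 639 CPM in high-yielding and 418, 421 and 1102 CPM in low-yielding cows, with a log2 fold change of 1.11 ± 0.45 and an adjusted p of 0.655 from edgeR. FAU (identifier 109554399), made as a fusion of a ubiquitin-like protein with a small-subunit protein, stood at 490, 331 and 123 CPM against 68.4, 82.2 and 246 CPM (1.25 ± 0.52, adjusted p = 0.655). In each of these 3 genes high 3 lay among the low-yielding and, for RPL13A and FAU, low 3 among the high-yielding cows. Groups did not overlap for any member in this breed, while 3.51% of all tested genes were higher and 3.70% lower in high-yielding cows without overlap.

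These values turned on single cows. Without low 3, the median over the 76 genes was 0.94, 50 genes had an unadjusted p under 0.05 in edgeR, and FAU stood at 2.06 and RPL13A at 1.74. Without high 3 the median was 0.87 and 42 genes passed that bound. Without high 1, FAU stood at 0.80 and the median at 0.34, with 2 genes past the bound, and without high 2, low 1 or low 2 there was 1 such gene each. Under none of these did a member pass an adjusted p of 0.05. The share of all genes past the unadjusted bound is given for the main fit only. Counts of members at that bound in other fits, here and below, therefore have no background beside them. DESeq2 called 0 members, against 0.396% of all genes, with 7 members at an unadjusted p under 0.05, all higher. Limma-voom with sample weights called 52 members (68.4%, all higher), against 25.3% of all genes, with a median of 0.99. That fit gave low 2 a weight of 6.62 and low 3 a weight of 0.184, so its low-yielding group rests mostly on 1 cow. With the log2 total count as a covariate the median was 0.47 and 34 genes had an unadjusted p under 0.05, all higher. With the share of the short identifiers as a covariate the median was -0.04, 27 of 76 genes were above 0 and 0 passed that bound. Without the 3 largest libraries, a choice made after seeing the data, the median was 0.37. Those libraries are Shweta Kapila high 3, low 1 and low 2, so that fit sets high 1 and high 2 against low 3 alone.

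Levels of cell markers also differed in this comparison. NK and cytotoxic markers had a median log2 fold change of 1.59 (6 of 7 above 0) and summed to 1874, 1428 and 805 CPM in the high-yielding and 564, 581 and 642 CPM in the low-yielding Shweta Kapila cows. T cell markers had a median of 0.66 (11 of 15 above 0), neutrophil markers of 0.44 (7 of 10) and B cell markers of -1.02 (0 of 9). B cell markers summed to 906, 921 and 790 CPM in the high-yielding and 789, 1325 and 3200 CPM in the low-yielding cows. Low 1 thus stood with the high-yielding cows, and low 3 was far above the rest. No marker passed the adjusted test. Their part in the ribosomal values was not tested.

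By role, the 2 tested stalk proteins of the large subunit, which recruit the translation factors, differed in how far they varied. RPLP1, with the second widest range of all members (9.80-fold), stood at 1769, 1355 and 399 CPM in high-yielding and 181, 237 and 1044 CPM in low-yielding cows, a log2 fold change of 1.27 ± 0.63 (SE). RPLP0, the base of the stalk, stood at 3142, 3075 and 1494 CPM against 1261, 1179 and 2751 CPM (0.57 ± 0.36), a range of 2.66-fold. In Gir the same genes were at -0.24 ± 0.62 and 0.09 ± 0.35. For both genes high 1 and high 2 were above low 3, and high 3 lay between low 3 and the other low-yielding cows.

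**Figure D4:**
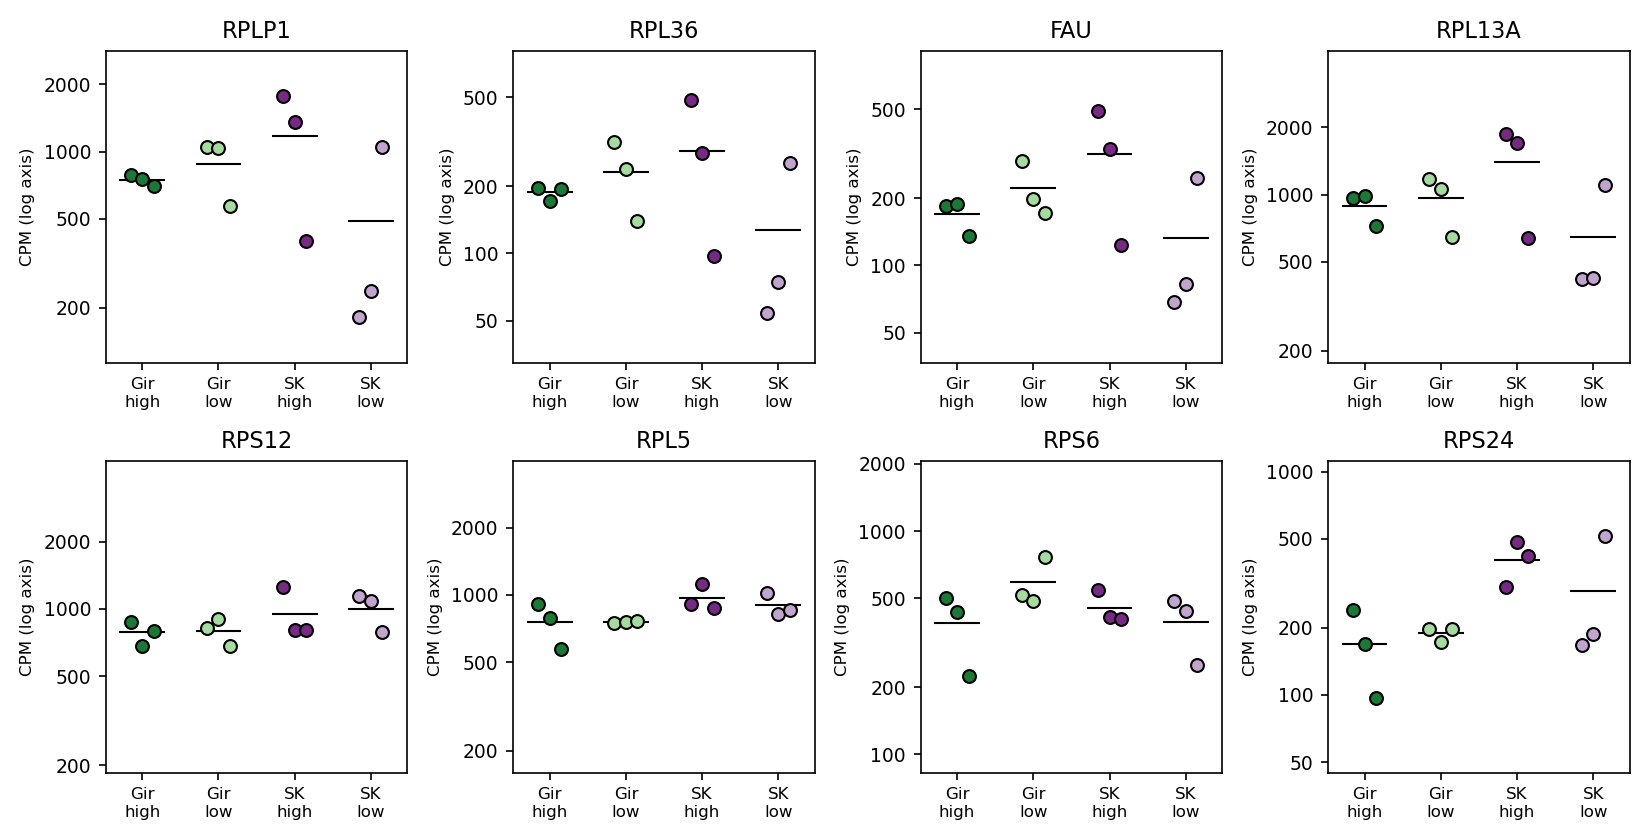
CPM (log axis) of 8 genes in each of the 12 cows by group; points are cows, lines are group means, and SK is Shweta Kapila. RPLP1, RPL36, FAU and RPL13A spread widely in both SK groups, with SK high 3 low and SK low 3 high, while RPS12, RPL5 and RPS6 vary less and RPS24 is lower in most Gir cows.

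RPL36, another large-subunit protein, had the third widest range (9.01-fold), from 53.8 CPM in Shweta Kapila low 1 to 485 CPM in high 1. RPL5 and RPL11, which carry the 5S ribosomal RNA and bind the p53 regulator MDM2, did not move alike. RPL5 stood between 569 CPM in Gir high 3 and 1119 CPM in Shweta Kapila high 2, with a yield difference of 0.11 ± 0.22 (SE, log2) in Shweta Kapila. RPL11 stood at 243, 290 and 153 CPM in high-yielding and 106, 98.6 and 220 CPM in low-yielding Shweta Kapila cows (0.69 ± 0.37). Neither passed the test, and the difference between the 2 genes was not tested.

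Around the exit tunnel, through which the new protein leaves the ribosome, RPL4 was at 0.28 ± 0.25, RPL17 at 0.31 ± 0.32 and RPL35 at 0.49 ± 0.34 (log2 fold change for yield in Shweta Kapila, with SE). RPL4 stood between 853 CPM in Gir high 3 and 1842 CPM in Shweta Kapila high 2. On the small subunit, all 7 genes of the mRNA channel and decoding site were above 0, with a median of 0.76. They were FAU (1.25), RPS28 (1.11 ± 0.60), RPS15 (0.79 ± 0.48), RPS23 (0.76 ± 0.39), RPS3 (0.52 ± 0.26), RPS2 (0.50 ± 0.33) and RPS26 (0.15 ± 0.39). RPS28 ran from 94.5 CPM in Shweta Kapila low 1 to 724 CPM in Shweta Kapila high 1. RPS26, which touches the mRNA at its exit from the channel, was the least different of the 7.

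RPS27A, the other member made as a ubiquitin fusion, stood at 102, 173 and 107 CPM in high-yielding and 143, 65.7 and 106 CPM in low-yielding Shweta Kapila cows (0.28 ± 0.33), with overlapping groups. The 9 genes whose loss causes inherited red cell aplasia (Diamond-Blackfan anaemia) in humans were all above 0 in Shweta Kapila, with a median of 0.52 and a range from 0.11 (RPL5) to 0.69 (RPL11). RPS19, the gene of this group mutated most often, was at 0.61 ± 0.40, RPS10 at 0.61 ± 0.35, RPL35A at 0.58 ± 0.58 and RPS24 at 0.47 ± 0.42. None passed edgeR's test (lowest adjusted p = 0.655), and in Gir 8 of the 9 were below 0 (median -0.17).

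Several members have a paralogue, and some of these paralogues can take the member's place in the ribosome, while RPL7L1 acts in assembly. The 5 tested paralogue forms had a median log2 fold change for yield in Shweta Kapila of 0.18 (range 0.12 to 0.81), and the 5 tested parent forms of 0.58 (0.18 to 0.89). These sets are not matched, since RPL7L1 lacks its parent and RPL10 its paralogue. By pair, RPL22L1 was at 0.18 and RPL22 at 0.18, and RPL26L1 at 0.81 and RPL26 at 0.89. RPS27L was at 0.31 and RPS27 at 0.45, and RPL3L, with few counts, at 0.12 ± 1.05 (SE) and RPL3 at 0.58. The ratio of RPL22L1 to RPL22 counts ranged from 2.37 in Shweta Kapila low 1 to 4.71 in Gir high 3, and its mean was 4.48 ± 0.264 in high-yielding Gir, 3.56 ± 0.789 in low-yielding Gir, 3.01 ± 0.550 in high-yielding and 3.09 ± 0.622 in low-yielding Shweta Kapila cows (SD, n = 3 each). The ratio of RPL26L1 to RPL26 ran from 0.0265 to 0.119, and that of RPS27L to RPS27 from 0.109 to 0.356. RPL10L, the testis form of RPL10, had at most 2 counts in any library and was not tested. How the authors' counting divided reads between near-identical copies, including processed pseudogenes, is not stated in any source used here, so these ratios and the levels of all members are uncertain to that extent.

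In Gir cows the yield classes hardly differed. The median over the 76 genes was -0.08, against -0.01 for all tested genes, and 18 genes were above 0. Large-subunit genes had a median of -0.09 (13 of 45 above 0) and small-subunit genes of -0.06 (5 of 31). No member, and no gene at all (0%), passed edgeR's test (lowest adjusted p = 1). At an unadjusted p under 0.05, 0 members were higher, against 1.17% of all genes, and 0 lower, against 0.713%. DESeq2 called 0 members (background 0.00649%), and so did the sample-weighted limma-voom fit (background 0.00649%), with 0 members at an unadjusted p under 0.05 in the former and 3, all lower, in the latter.

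The 3 genes of lowest p on the lower side in Gir were RPS6 (-0.61 ± 0.34), RPL26L1 (-0.55 ± 0.35) and RPL35 (-0.45 ± 0.34), and on the higher side RPS13 (0.30 ± 0.40), RPS29 (0.62 ± 1.02) and RPS2 (0.16 ± 0.33), all SE on the log2 scale with adjusted p = 1 from edgeR. RPS6 stood at 499, 436 and 224 CPM in high-yielding and 516, 487 and 763 CPM in low-yielding cows, and the groups overlapped, since high 1 was above low 2. RPL26L1, a copy of RPL26, stood at 10.6, 9.18 and 7.64 CPM against 12.9, 15.1 and 12.2 CPM, and RPS26 at 292, 263 and 281 CPM against 439, 307 and 315 CPM. These 2 genes were the only members whose Gir groups did not overlap, both lower with high yield (5.06% of all tested genes were lower in this way and 5.12% higher). Without Gir low 1 the median over the members was 0.04. Monocyte markers had a median of 0.74 in this comparison (7 of 7 above 0), neutrophil markers of 0.35 (7 of 10), erythroid markers of 0.53 (5 of 5), T cell markers of -0.19 (1 of 15) and NK markers of -0.46 (0 of 7), and their part was not tested.

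Over both breeds together, 69 of 76 genes were above 0 for high against low yield, with a median of 0.23 (all tested genes -0.01). None passed edgeR's test (lowest adjusted p = 0.874, background 0%), and at an unadjusted p under 0.05 only RPS29 was higher (2.23 ± 0.77 SE, 1 member against 2.28% of all genes) and 0 were lower (1.85% of all genes). RPL10, among the last proteins to join the large subunit, was next at 0.49 ± 0.29, then RPL13A at 0.50 ± 0.32. The count of higher genes at this bound was 27 without Shweta Kapila low 3, 7 without Shweta Kapila high 3 and 16 with the log2 total count as a covariate. The genes of lowest p on the lower side were RPS6 (-0.20 ± 0.24), RPL22 (-0.09 ± 0.22) and RPS20 (-0.09 ± 0.24). DESeq2 called 0 members (background 0.0259%) and limma-voom with sample weights 13 (17.1%, background 8.15%).

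The yield differences of the 2 breeds were set against each other in the same model. The difference in Gir minus that in Shweta Kapila cows was below 0 for 74 of 76 genes, with a median of -0.67 against 0.01 for all tested genes; RPS13 (0.11 ± 0.57) and RPS12 (0.05 ± 0.35) were the genes above 0. No member passed edgeR's test of this difference (lowest adjusted p = 0.955, background 0%). At an unadjusted p under 0.05 there were 2 lower, RPL26L1 (-1.36 ± 0.50) and FAU (-1.63 ± 0.74), against 2.35% of all genes, and 0 higher, against 1.46%. RPL9, at the base of the stalk, came next on the lower side at -1.11 ± 0.52. The count of lower genes at this bound was 41 without Shweta Kapila low 3, 22 without Shweta Kapila high 3, 7 without Gir low 3, 0 without Shweta Kapila high 2, 1 without Gir high 1, Gir high 3, Gir low 2 or Shweta Kapila low 2, and 12 with the log2 total count as a covariate. DESeq2 called 0 members (background 0.0584%) and limma-voom with sample weights 29 (38.2%, background 8.48%). With the share of short identifiers as a covariate the median was -0.002.

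Between the breeds, 54 of 76 genes were lower in Gir and 22 higher, with a median log2 difference, Gir minus Shweta Kapila, of -0.14 (-0.04 for all tested genes). Large- and small-subunit genes had the same median, -0.14. None passed edgeR's test (lowest adjusted p = 0.343, background 0%). Of the members, 7 (9.21%) were lower at an unadjusted p under 0.05, against 5.79% of all genes, and 1 (1.32%) was higher, against 3.78%. The count of lower genes at that bound was 2 without Gir high 3, Gir low 3 or Shweta Kapila high 2 and 15 without Shweta Kapila high 3. The median was 0.01 without Shweta Kapila high 1 and 0.02 without Shweta Kapila low 3. It was -0.50 without the 3 largest libraries, a fit in which low 3 alone stands for the low-yielding Shweta Kapila cows. With the log2 total count as a covariate it was -0.38 (35 genes lower at the unadjusted bound). With the share of short identifiers as a covariate it was -0.21 (22 lower). In the same comparison monocyte markers had a median of 0.56 (7 of 7 above 0), neutrophil markers of 0.49 (9 of 10), B cell markers of 0.39 (9 of 9), T cell markers of -0.18 (5 of 15) and NK markers of -0.51 (1 of 7), and their part in the ribosomal values was not tested.

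The 7 genes were RPS24 (-0.94 ± 0.30), RPL17 (-0.67 ± 0.23), RPS27A (-0.63 ± 0.24), RPL26 (-0.89 ± 0.35), RPL37 (-0.97 ± 0.39), RPL23 (-0.58 ± 0.23) and RPL22 (-0.52 ± 0.22), and the 1 higher gene was RPS29 (1.79 ± 0.76), all log2 differences with SE. RPS24 (identifier 109553861), a small-subunit protein needed for maturation of the small-subunit RNA, stood at 239, 169 and 97.1 CPM in high-yielding and 197, 172 and 198 CPM in low-yielding Gir, and at 303, 486 and 419 CPM in high-yielding and 168, 188 and 516 CPM in low-yielding Shweta Kapila cows. Its mean was 179 ± 47.3 CPM in Gir and 347 ± 150 CPM in Shweta Kapila (SD, n = 6 each), and the breeds overlapped at Shweta Kapila low 1 (168 CPM) and low 2 (188 CPM). RPL17 (identifier 109577864) stood at 12.0 ± 3.28 CPM in Gir and 19.0 ± 4.54 CPM in Shweta Kapila (SD, n = 6 each), and RPS27A at 74.9 ± 16.7 and 116 ± 37.2 CPM. On the higher side RPS18 (0.21 ± 0.23) and RPL7L1 (0.13 ± 0.15) came after RPS29. No member separated the 6 Gir from the 6 Shweta Kapila cows, which 0.266% of all genes did on the higher and 0.337% on the lower side.

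Other fits of the breed difference called other members. DESeq2 called 0 (background 1.26%, with 7 lower and 1 higher at an unadjusted p under 0.05), and limma-voom with sample weights called 2, RPL17 and RPS24 (2.63%, background 16.6%). With the log2 total count as a covariate edgeR called 3 of 76 members, against 53 of 15420 genes. They were RPL37 (-1.40), RPL34 (-0.97) and RPL32 (-0.68), all lower in Gir. Without Shweta Kapila low 3, edgeR called 0 members but 447 of 15755 genes. RPS24 was at -0.58 without Shweta Kapila low 3 and at -1.33 without the 3 largest libraries. RPS29 was at 1.00 without those 3 libraries.

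For yield in Shweta Kapila, other lists of ribosome production and translation had medians nearer to 0. Elongation factors and other TOP mRNAs, whose translation is set in the same way, had a median of 0.14 for yield in Shweta Kapila (13 of 21 above 0), with EEF1G, a subunit of elongation factor 1, at 0.62 ± 0.25 (SE) and NPM1, a nucleolar chaperone, at -0.50 ± 0.23. Ribosome assembly factors had a median of -0.16 (24 of 57 above 0), and the 3 of lowest p were lower with high yield: UTP4 (-0.72 ± 0.23), NOP58 (-0.64 ± 0.25) and PNO1 (-0.61 ± 0.25). Subunits and factors of RNA polymerase I and of 5S transcription, which make ribosomal RNA, had a median of -0.19 (6 of 14 above 0). The mTORC1 and TOP control list had a median of 0.15 (10 of 16 above 0), with MYC, a transcription factor that drives ribosome production, at -0.80 ± 0.23. Mitochondrial ribosomal protein genes, which build the separate ribosome of the mitochondrion, had a median of 0.24 (51 of 70 above 0).

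**Figure D5:**
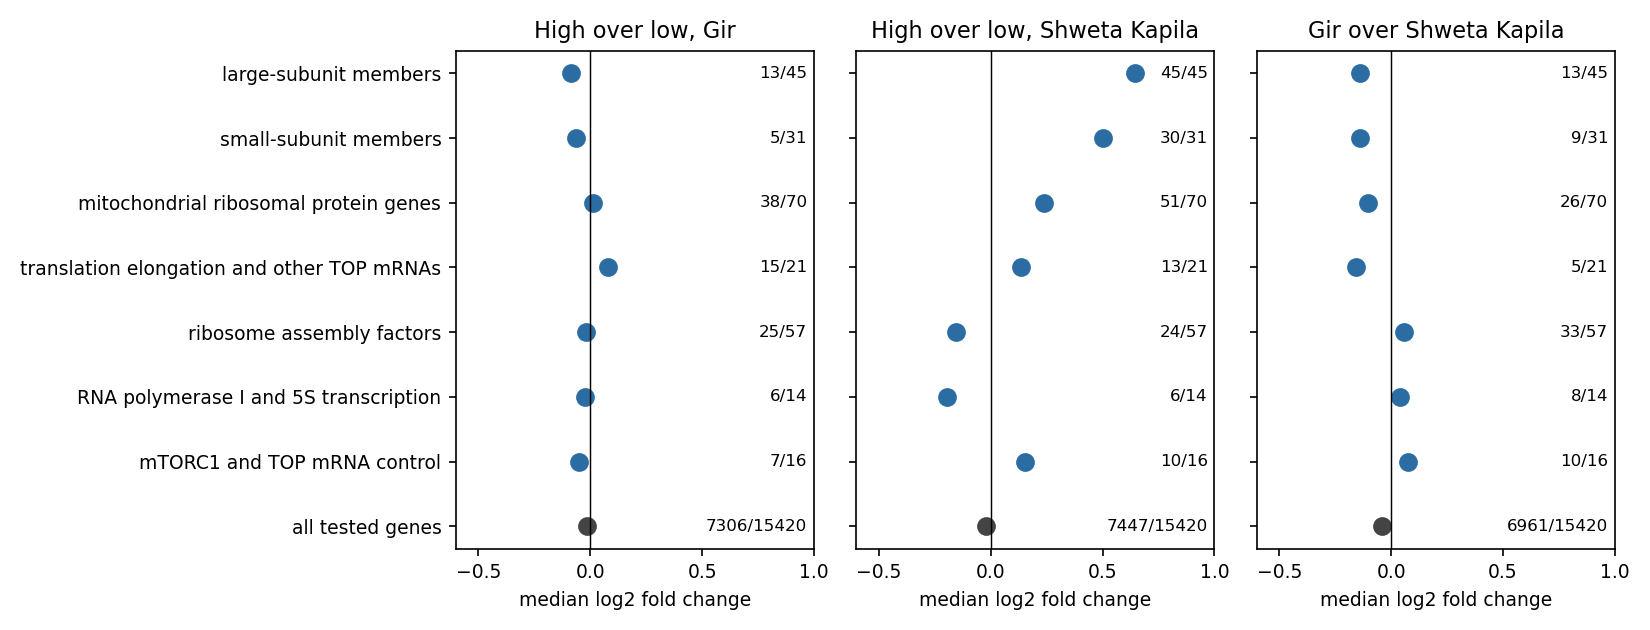
Points give the median log2 fold change of the large- and small-subunit genes and 5 lists of ribosome production and translation for yield in Gir, yield in Shweta Kapila, and breed (Gir over Shweta Kapila); the numbers give the genes above 0 and the genes tested, and the dark point is all tested genes. The large-subunit (0.65) and small-subunit (0.50) genes have the highest medians of those drawn in Shweta Kapila, and in Gir the drawn medians lie between -0.09 and 0.08.

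No gene of these lists passed edgeR's adjusted test in any of the 5 comparisons. At an unadjusted p under 0.05 in edgeR there were, in Shweta Kapila, 1 of 21 TOP genes (higher) and 5 of 57 assembly factors (lower). The other counts were 0 of 14 polymerase genes, 1 of 16 mTORC1 genes (lower) and 1 of 70 mitochondrial ribosomal protein genes (higher). Of all tested genes, 4.05% were higher and 2.93% lower at that bound. In Gir the medians of the 5 lists lay between -0.05 and 0.08. There, 0 genes of the lists passed that bound, against 1.17% (higher) and 0.713% (lower) of all tested genes. For breed the medians lay between -0.16 and 0.08. Differences between these lists and the cytosolic ribosomal protein genes were not tested.

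Outside the members, the genes with a symbol whose log2 CPM over the 12 libraries was closest to the mean of the ribosomal protein genes were SMDT1 (Pearson r = 0.972), a part of the mitochondrial calcium uniporter, SERF2 (0.969), NOP53 (0.965), a large-subunit assembly factor, ATP5ME (0.963), a subunit of the mitochondrial ATP synthase, and TBKBP1 (0.963), an adaptor of the kinase TBK1. SMDT1 ranged from 7.29 CPM to 71.5 CPM and NOP53 from 187 to 684 CPM. All 5 were highest in Shweta Kapila high 1, and all but TBKBP1 were lowest in Shweta Kapila low 1. These values describe libraries that share scaling and depth and were picked as the highest of all genes.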

How the data were processed

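Blood RNA was sequenced for 12 cows, 3 in each of 4 groups of breed and yield class, from libraries that mark strand and had ribosomal RNA removed, per the labels' protocols. The authors deposited unscaled expected counts, 1 value per gene and library; 98.7% of the values of the 76 tested members are not whole (tolerance 1e-06). Per the submitters' processing notes, Trimmomatic and FastQC were used; no versions are stated. Aligner, counter, strand setting, build and annotation: not given in the sources used here, so no coordinates are printed.

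Symbols came by identifier from a RefSeq gene table of the assembly NIAB-ARS_B.indTharparkar_mat_pri_1.0, which matched 22754 of 26229 identifiers. Expected counts were rounded. The filter was filterByExpr of edgeR 4.0.16 (R 4.3.3), which used the groups, a count minimum of 10 and a total of 15, and left 15420 genes. Libraries were scaled by TMM and genes fitted by robust quasi-likelihood with 4 group means over 12 libraries (common biological coefficient of variation 0.381). The 5 contrasts were tested 2-sided, with Benjamini-Hochberg adjustment over all genes and a threshold of 0.05. The contrasts were yield in Gir, yield in Shweta Kapila, their mean, their difference, and breed. Log2 CPM used a prior count of 2. Total counts of 14.2 to 27.2 mega-counts (M) set the counting error. Gene groups are described by counts and medians beside those of all tested genes. Scripts were tested on simulated data.

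Alternatives were RLE scaling, total counts without TMM, no short identifiers, no filter, DESeq2 1.42.0, limma 3.58.1 (voom with sample weights), covariates for log2 total count or the share of short identifiers, a replicate block, each library left out, and no paralogue forms. One more, chosen after seeing the data, left out the 3 largest libraries. All 3 are from Shweta Kapila cows (high 3, low 1 and low 2), which leaves low 3 alone in its group. Tables and plots were made with matplotlib 3.10.9, pandas 2.3.3, NumPy 2.4.6 and Python 3.11.15.

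The members and lists were chosen with earlier results of these data known. Members named with values are those of the role lists, the 3 of lowest p on each side of each comparison, and the 3 of largest and of smallest SD. Outside the members they are the 5 genes most like the members' mean and up to 3 of lowest p of each other list; RPL36 and members past an unadjusted bound or called in another fit were named after their values were seen. Levels per coding length and shortest proteins, also in that rule, were not used here, since no lengths were at hand; levels are therefore not compared between genes, and count ratios of the subunits or of paralogues compare libraries only. Some genes that the rule names are not reported here.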

Additional observations from a re-analysis of the deposited data

How the results depend on the processing

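The count of members past an adjusted p of 0.05 was 0 in all 5 comparisons in edgeR's main fit, in each fit that left out 1 library, and under RLE scaling, no TMM, no short identifiers, no filter, DESeq2, the short-identifier covariate and without the 3 largest libraries. In limma-voom with sample weights it was 52 for yield in Shweta Kapila (68.4%, all genes 25.3%) and 13 over both breeds (17.1%, all genes 8.15%). In the same fit it was 29 for yield by breed (38.2%, all genes 8.48%) and 2 for breed (2.63%, all genes 16.6%). With the log2 total count as a covariate it was 3 for breed, against 53 of 15420 genes. With the share of short identifiers as a covariate, the median log2 fold change of the members was -0.044 for yield in Shweta Kapila, -0.046 over both breeds and -0.002 for yield by breed, against 0.579, 0.232 and -0.674; the cause was not tested. In limma-voom the median for yield by breed was -1.116. With 1 library left out, the median ranged from -0.214 to 0.036 for yield in Gir (above 0 only without Gir low 1), from 0.342 to 0.942 for yield in Shweta Kapila, from 0.122 to 0.412 over both breeds, from -1.087 to -0.42 for yield by breed and from -0.247 to 0.021 for breed (above 0 only without Shweta Kapila high 1, at 0.014, or low 3). Other alternatives kept the direction of these medians, though for breed the size ran to -0.495 without the 3 largest libraries and -0.375 with the log2 total as a covariate, against -0.137.

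The large-subunit minus small-subunit median was -0.023 for yield in Gir, 0.143 in Shweta Kapila, 0.034 over both breeds, -0.059 by breed and 0 for breed. Except in Shweta Kapila, where it stayed above 0 with any 1 library left out, that median was small beside its changes. With 1 library left out it ranged from -0.139 to 0.062, 0.022 to 0.205, 0 to 0.119, -0.206 to -0.07 and -0.062 to 0.037 in the same order. Without the 3 largest libraries it was -0.021 in Shweta Kapila, -0.025 over both breeds, 0.015 by breed and -0.075 for breed. In that fit low 3 alone stands for the low-yielding Shweta Kapila cows. The short-identifier covariate gave 0.046 in Shweta Kapila and -0.024 over both breeds, and limma-voom 0.08 in Shweta Kapila and -0.08 for breed. For breed it was 0.001 without TMM and 0.001 with the log2 total as a covariate, and by breed -0.117 without the paralogue forms. The cause of these changes was not tested.

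Replicate numbers are shared between groups in the labels, but each cow is separate. Deviations of same-numbered libraries correlated between -0.558 and 0.339 over 18 pairs, with 3 over 0.1, and 3 of 12 libraries correlated best with their own number, so the numbers were not taken to pair the samples. With a replicate block the median for yield in Shweta Kapila was 0.529 and the count of members called was 0 in each comparison. Depth limits few members: RPL3L and RPL10L, at no more than 14 counts in any library, and RPS29, at 11 counts in its lowest, carry the widest counting error.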
